A study of Mus musculus with 168 samples.

Results

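Quiescent cells of the old mouse subventricular zone (SVZ) were divided by Sfrp5, the transcript of secreted Frizzled-related protein 5, and the transcriptomes on either side of the division were compared. Of 133 SVZ cells, 26 were set aside because ribosomal protein transcripts made up 5% or more of their TPM, a share called R here, and the rest were taken as quiescent. The groups were chosen by the measured level of Sfrp5, which stood at 1 TPM or more in 32 quiescent cells, called Sfrp5 positive, and below 1 TPM in 75, called Sfrp5 negative. TPM is a unit that gives each transcript, corrected for its length, as a share of a fixed total of 1e+06 in its cell.

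The study sequenced 150 single cells of old mouse brain by Smart-seq2, which reads whole transcripts of 1 cell at a time, and 18 libraries of sorted populations not analysed here. Of the single cells, 17 were astrocytes of striatum and cortex, labelled 25 months old, which serve only for comparison of levels. The 133 SVZ cells, labelled as neural stem cells, came from male C57BL/6 mice, for which the labels name no transgene or treatment. The labels put their age at 23 months, whereas the protocol gives 22 months and pools 4 old mice per replicate. Cells that stained for GLAST and CD133 and lacked CD45 and O4 were sorted and hand-picked. Column names divide them into a series named ogp and a series named ogp2. No animal is named for any cell, so cells are not replicates. Both Sfrp5 groups share every label, and each group counts as 1 sample. No difference was tested and no p-value is given. Standard deviations (SD) are spreads between cells, and intervals on shares are exact 95% Clopper-Pearson intervals that cover counting error only.

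Wnt ligands are secreted lipid-modified proteins that bind Frizzled receptors and LRP coreceptors, after which beta-catenin escapes destruction and acts with TCF and LEF factors on target genes. Secreted Frizzled-related proteins carry a Frizzled-like domain that can bind Wnt ligands outside the cell, and they are best known as Wnt antagonists. In the SVZ, the layer along the lateral ventricle, neural stem cells are astrocyte-like cells that remain quiescent for long periods and make neuroblasts for the olfactory bulb once activated. GFAP and vimentin are intermediate filament proteins of these stem cells, and low content of ribosomal protein transcripts is a mark of the quiescent state.

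The sequences below are the 250 bases upstream of the RefSeq transcription start, 5′ to 3′ on the gene's strand, build GRCm38.p6, for the dividing gene and for 4 genes whose levels differed between the groups. Capitals mark CG dinucleotides. The Sfrp5 window lies at chr19:42202253-42202502 on the minus strand, Igsf21 at chr4:140246812-140247061 on the minus strand and Gfap at chr11:102897201-102897450 on the minus strand. The Vim window lies at chr2:13574061-13574310 on the plus strand, and that of the upstream of 2 Lhx2 starts at chr2:38339031-38339280 on the plus strand.
Sfrp5: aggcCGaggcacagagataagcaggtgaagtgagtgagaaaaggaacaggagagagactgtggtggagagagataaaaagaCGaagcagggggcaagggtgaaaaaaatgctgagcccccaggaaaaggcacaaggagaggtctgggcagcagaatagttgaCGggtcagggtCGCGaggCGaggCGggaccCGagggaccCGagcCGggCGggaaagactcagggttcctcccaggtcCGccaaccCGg
Igsf21: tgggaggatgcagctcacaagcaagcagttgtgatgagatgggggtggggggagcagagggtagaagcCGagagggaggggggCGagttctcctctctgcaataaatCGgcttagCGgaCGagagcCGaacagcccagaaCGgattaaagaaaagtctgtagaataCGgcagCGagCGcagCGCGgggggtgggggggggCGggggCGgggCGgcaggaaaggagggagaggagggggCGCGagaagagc
Gfap: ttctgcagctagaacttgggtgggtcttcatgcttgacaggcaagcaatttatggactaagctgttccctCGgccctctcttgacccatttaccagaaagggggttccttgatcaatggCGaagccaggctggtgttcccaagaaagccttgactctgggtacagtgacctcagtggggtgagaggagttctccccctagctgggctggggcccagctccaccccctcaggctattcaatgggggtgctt
Vim: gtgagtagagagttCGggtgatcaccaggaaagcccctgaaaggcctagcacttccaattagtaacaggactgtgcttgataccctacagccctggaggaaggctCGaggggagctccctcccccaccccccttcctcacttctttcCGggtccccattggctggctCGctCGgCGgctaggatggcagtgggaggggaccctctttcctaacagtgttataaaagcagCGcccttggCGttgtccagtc
Lhx2: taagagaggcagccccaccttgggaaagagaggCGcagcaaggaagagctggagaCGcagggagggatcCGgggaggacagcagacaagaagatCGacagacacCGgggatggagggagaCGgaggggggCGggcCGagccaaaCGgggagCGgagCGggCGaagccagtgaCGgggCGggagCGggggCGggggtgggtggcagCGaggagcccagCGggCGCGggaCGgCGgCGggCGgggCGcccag
CG dinucleotides numbered 13 in the Sfrp5 window, 17 in Igsf21, 2 in Gfap, 8 in Vim and 25 in Lhx2. Their median was 6 over all 32851 mouse promoters in the RefSeq table, but 16 over the 8941 promoters of all genes compared. The TCF and LEF core motif, searched as CTTTGA or CTTTGT on both strands, occurred 0 times in each of these 5 windows and in 27.6% of all promoters of this length. It was present in 22.9% of 48 promoters of the genes higher in positive cells by the rule given further on, in 25.9% of 27 promoters of the genes lower by that rule, and in 21.4% of the 8941 promoters of all genes compared. A match describes letters only, and the lack of one says only that they are not in this window.

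Sfrp5 itself was close to on or off. Positive cells ranged from 9.98 to 477 TPM with a median of 187. The lowest positive value was 9.98 TPM and the next 25.4 TPM, while 5 negative cells had traces of 0.18 to 0.23 TPM and the other negative cells were listed at 0. On R, the highest cell inside the limit had 4.19% and the lowest cell outside it 5.14%. Sfrp5 chose the groups, so it is left out of all that follows.

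The share of positive cells was nearly equal in both series. It was 15 of 50 quiescent ogp cells (30%, interval 17.9 to 44.6) and 17 of 57 quiescent ogp2 cells (29.8%, 18.4 to 43.4). Outside the quiescent cells, Sfrp5 reached 1 TPM in 1 of 26 SVZ cells with R of 5 or more (3.85%, 0.0973 to 19.6) and in 1 of 17 astrocytes of striatum and cortex (5.88%, 0.149 to 28.7).

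Cell quality was alike in the groups but not identical. Positive cells had a median of 3398 genes at 1 TPM or more (1937 to 5033) and negative cells 3186 (2066 to 5782), and median R was 1.54% and 1.76%. TPM keeps no read counts, so the depth is unknown and no detection limit can be given. Across genes, no pair of quiescent cells correlated above 0.584, and no cell's values were deposited more than once. In 4 quiescent ogp cells, 1 positive and 3 negative, the listed values summed to 309864 TPM or less in place of 1e+06, and every cell was rescaled to that total.

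Genes of quiescent stem cells and astrocytes were abundant in both groups. The summed level of 30 quiescent stem cell and astrocyte genes had a median of 153875 TPM in positive cells (65974 to 192167) and 151771 TPM in negative cells (21555 to 241784). Slc1a3, which encodes the sorted antigen GLAST, was detected in every cell. Prom1, which encodes CD133, was at 1 TPM or more in only 3.12% of positive and 6.67% of negative cells. The summed level of 24 activated stem cell genes had a median of 482 TPM in positive cells (14.2 to 1463) and 482 TPM in negative cells (9.15 to 1682). Of these 24 genes 3 (Mki67, Mcm2 and Dll3) were below 1 TPM in every quiescent cell, while Hmgb2 was detected in 13 positive and 25 negative cells, Egfr in 10 and 19, and Rrm1 in 2 and 11.

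A total of 6 cells stood apart from the rest, and all 6 were Sfrp5 negative. Cells are called by series and number, such as ogp22 for number 22 of ogp and ogp2-87 for number 87 of ogp2. Cells ogp22 and ogp2-87 had summed oligodendrocyte lineage levels of 7386 and 6594 TPM, where the next cell had 1675 and the highest positive cell 847, and their astrocyte sums of 21555 and 29898 TPM were low. Pdgfra, Cspg4 and Sox10, which define oligodendrocyte precursors, averaged 237, 44.8 and 88.6 TPM over the 6 cells and were under 1 TPM in every other quiescent cell. Cell ogp38 had 4758 TPM of microglial transcripts against at most 292 elsewhere. Cell ogp41 had 30896 TPM of interferon response transcripts, and ogp106 and ogp82 had 16915 and 36011 TPM of immediate early transcripts. Results that rest on these cells are given with and without them. Below 1 TPM in every quiescent cell were 4 of 11 microglial genes, Cx3cr1 and Tmem119 among them, 8 of 10 endothelial genes, Cdh5 and Kdr among them, and 3 of 10 neuronal genes, Slc17a7 among them. Others were present in some cells, such as P2ry12 of microglia in 3 positive and 10 negative cells, C1qb in 0 and 5, and the neuronal gene Stmn3 in 2 and 10.

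Most genes had similar means in the groups, and the largest differences came from genes detected in few cells. The value used for each gene is the log2 difference, the log2 of (mean TPM + 1) in positive cells over (mean TPM + 1) in negative cells, which understates differences of low genes. It was computed for 8835 genes that averaged at least 10 TPM in either group, and its median was -0.01. At 2-fold or more, 944 genes (10.7%) were higher in positive cells and 1235 (14.0%) lower, or 24.7% in either direction. Of the genes compared, 1216 reached 10 TPM in negative cells alone and 870 in positive cells alone, and these had to differ. Among the 6749 genes with 10 TPM in both groups 377 (5.59%) were higher and 369 (5.47%) lower, with a median of 0.02. Gene lists are therefore also given over their members with 10 TPM in both groups. Counts of list members past 2-fold are to be read against these shares over all genes. Averaging log2(TPM + 1) over cells in place of TPM turned the 944 higher and 1235 lower genes into 793 and 192. Of the genes called, 533 of the higher and 778 of the lower ones were detected in under 20% of the cells of their higher group. A total of 97 genes were listed at 0 in every positive cell and 16 in every negative cell.

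Each series alone gave more differences than both shared. Within ogp cells 1407 genes were 2-fold higher and within ogp2 cells 1390, and 306 were higher in both and overall (21.7% of the ogp and 22.0% of the ogp2 list, 3.46% of all genes compared). Another 333 of the ogp genes were 2-fold lower in ogp2 cells. Of 1971 genes lower within ogp and 1871 lower within ogp2 cells, 631 were lower in both and overall (32.01% and 33.7%, 7.14% of all genes), and 356 of the ogp genes were 2-fold higher in ogp2 cells. Genes are therefore named below where both series showed the difference, the higher group averaged at least 20 TPM and at least 40% of its cells had the transcript. That rule was met by 39 genes higher in positive cells (0.441% of those compared) and by 26 lower genes (0.294%), and the 12 with the widest separation in each direction are described. They were picked for their differences, so their values describe these cells and support nothing further.

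**Figure D1:**
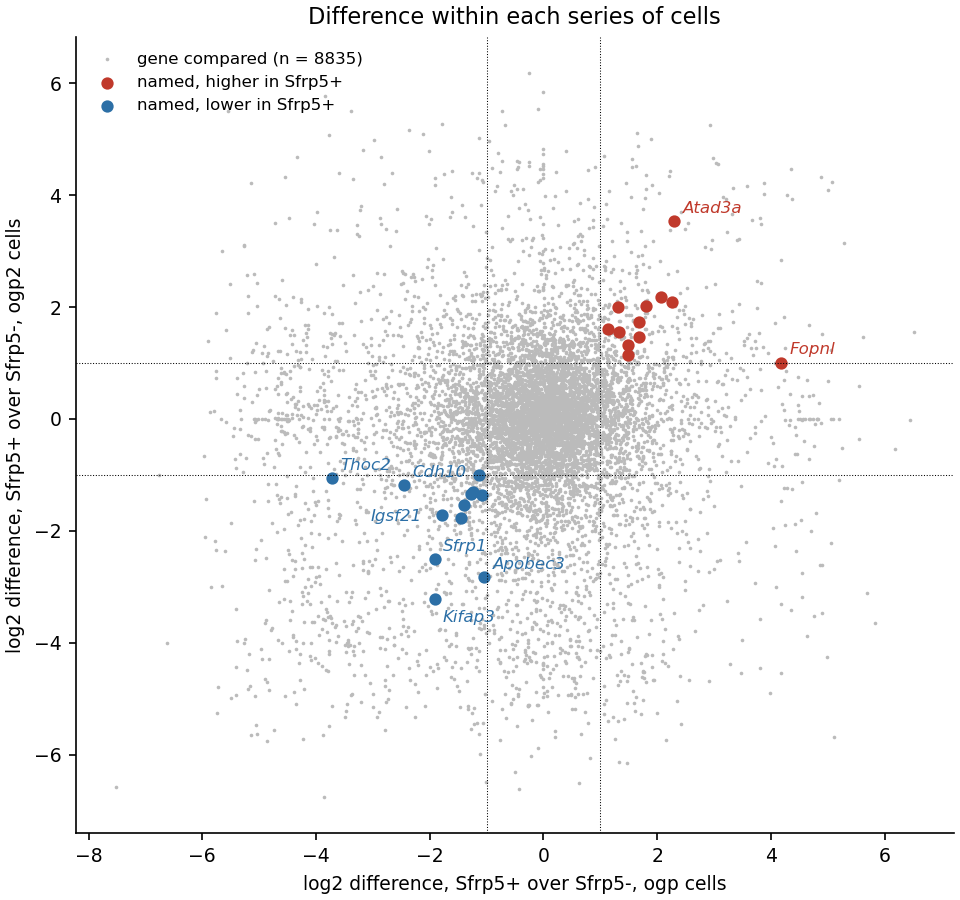
Each point is 1 of the 8835 genes compared, placed by its log2 difference, Sfrp5 positive over negative, in ogp cells (horizontal axis) and in ogp2 cells (vertical axis), with dotted lines at 2-fold. The points spread into all 4 corners, and the red and blue points are the 12 named higher and 12 named lower genes, for example Sfrp1 at -1.91 and -2.51.

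Sfrp5 positive cells had less of a related antagonist, Sfrp1. The abundant Dickkopf-related gene Dkk3 was level between the groups. Sfrp1 (ENSMUSG00000031548, chr8:23411502-23449632, plus strand) encodes secreted Frizzled-related protein 1. It ranged from 0 to 175 TPM in positive cells with a median of 0, and from 0 to 640.4 TPM in negative cells with a median of 2.24. The groups overlapped, since the highest positive cells lay among the middle of the negative cells that had the transcript. Mean levels were 18.9 TPM (SD 46.6) and 84.6 TPM (SD 145), a log2 difference of -2.11. The transcript was detected in 7 of 32 positive cells (21.9%, interval 9.28 to 39.97) and in 39 of 75 negative cells (52%, 40.2 to 63.7). By series these were 5 of 15 against 18 of 35 ogp cells and 2 of 17 against 21 of 40 ogp2 cells. Leaving out any single cell kept the log2 difference between -2.53 and -1.97. Sfrp1 and Sfrp5 were thus found together in 7 quiescent cells.

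Among the other secreted inhibitors, Sfrp4, a further family member, reached 1 TPM in 4 negative cells (mean 16.1 TPM over all 75) and in no positive cell. Notum, an extracellular enzyme that strips the lipid from Wnt ligands, did so in 8 negative cells (mean 13.5 TPM) and no positive cell. Dkk3, a Dickkopf-related secreted protein, averaged 709 TPM (SD 452) in positive and 666 TPM (SD 457) in negative cells, a log2 difference of 0.09 in all cells and in each series. Of the 19 members of the inhibitor list 5 were compared, of which 3 were 2-fold lower in positive cells (14.0% of all genes were) and 0 higher, with a median of -2.11. Sfrp4, Notum and Kremen1 passed the expression limit through negative cells alone and had to differ, so this median is no measure of the inhibitors as a whole. Only Sfrp1 and Dkk3 had 10 TPM in both groups, and the list median was -0.45 as a difference of mean logs and 0 with no expression limit. Sfrp4 and Notum lie below the 20 TPM used for naming and were picked after their values were seen, as were Rspo3 and Fzd5 below.

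**Figure D2:**
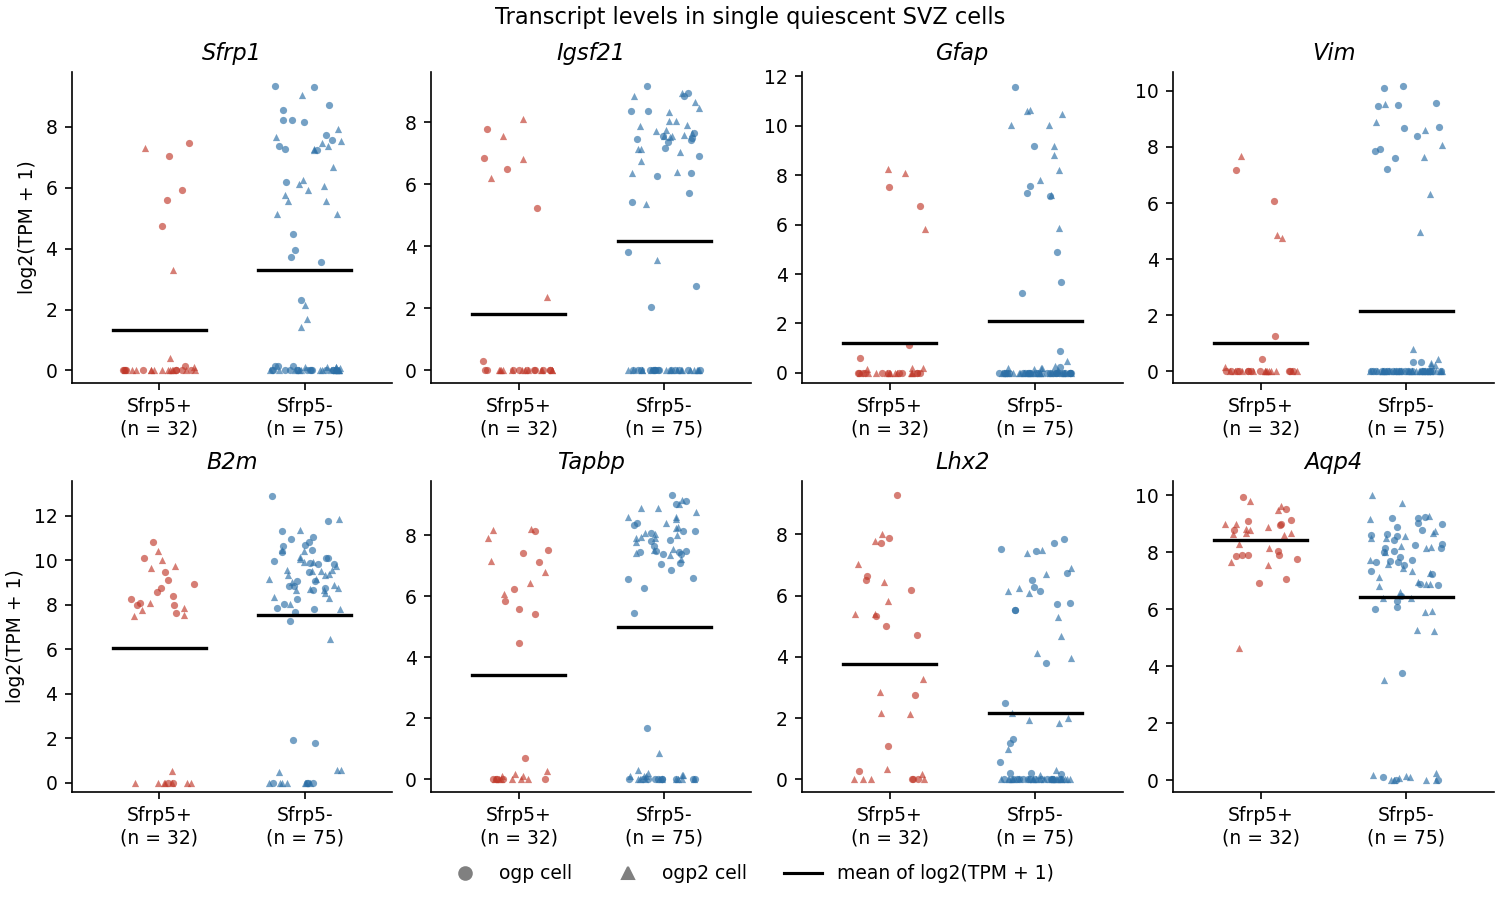
Each point is 1 quiescent SVZ cell, its height is the transcript level as log2(TPM + 1) on an axis of its own for each gene, circles are ogp and triangles ogp2 cells, and black bars are means of the plotted values. Sfrp1, Igsf21, Gfap and Vim are at or near 0 in most of the 32 Sfrp5 positive cells and Aqp4 is detected in all 32, while the ranges of the groups overlap for every gene.

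Wnt ligands and the export machinery were mostly level by mean TPM. Of 25 members 5 were compared, 0 were 2-fold higher and 1 was lower, with a median of 0.01, or 0.07 over the 4 with 10 TPM in both groups. As a difference of mean logs the median was 0.79, against 0.11 over all genes. Wls, the carrier that takes Wnt ligands to the cell surface, averaged 322 and 295 TPM in positive and negative cells, and the ligand Wnt7a 90.3 and 89.8 TPM. Wnt7b ranged from 0 to 381 TPM in positive cells (median 95.4) and from 0 to 643 TPM in negative cells (median 33.2), and was detected in 75% and 52% of them. Its log2 difference of 0.55 was 1.08 within ogp and 0.18 within ogp2 cells. The 1 lower member was Rspo3, a secreted amplifier of Wnt signals, detected in 2 positive cells (mean 0.865 TPM) and 8 negative cells (mean 15.1 TPM). Porcn, the enzyme that adds the lipid to Wnt ligands, averaged 56.4 and 58.8 TPM.

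Wnt receptors with 10 TPM in both groups were within 2-fold. Of 23 members 10 were compared, 0 were 2-fold higher and 2 were lower, with a median of -0.71. Fzd5, Fzd7, Fzd9 and Ryk passed the expression limit through negative cells alone and Ptk7 through positive cells alone, so they had to differ. Over the other 5 the median was -0.16, with 0 higher and 0 lower. Fzd9, a Frizzled receptor, was detected in 2 positive cells (mean 3.93 TPM, SD 18.1) and 17 negative cells (mean 28.3 TPM, SD 65.1), a log2 difference of -2.57, with -4.01 when positive cell ogp2-34 was left out. Ryk, a tyrosine kinase-like Wnt receptor, was detected in 5 and 15 cells (15.6% and 20%) with a log2 difference of -1.61 (-2.35 without positive cell ogp1). The receptors found in most cells differed little. Fzd2 averaged 54.4 TPM in positive and 60.9 TPM in negative cells, and Lgr4, a receptor for R-spondins, 64.98 and 51.9 TPM. Znrf3, a ligase that removes Frizzled receptors from the membrane, averaged 45.5 and 49.3 TPM. Fzd5, at -0.90, was detected in 15.6% of positive and 34.7% of negative cells, and Fzd1 was at -0.69.

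The beta-catenin relay showed differences in both directions. Of 25 members 16 were compared, of which 5 were 2-fold higher (10.7% of all genes were) and 1 lower (14.0%), with a median of 0.11. The higher members Dvl2, Tcf7l1 and Tle3 and the member Pygo2 passed the limit through positive cells alone, and Dvl1 through negative cells alone. Among the other 11 members 2 were higher and 1 lower, with a median of -0.11. Cby1, which binds beta-catenin and restrains it, ranged from 0 to 655 TPM in positive cells (median 3.24, 16 detected) and from 0 to 579.7 TPM in negative cells (median 0, 18 detected). Its log2 difference of 1.12 was 1.10 and 1.14 in the series, and 0.95 without positive cell ogp2-83. Bcl9, a coactivator bound by beta-catenin, was at 1.19 with 0.54 in ogp and 2.48 in ogp2 cells (0.90 without positive cell ogp2-68). Ctnnbip1, another beta-catenin inhibitor, was at -1.07 (-0.78 without negative cell ogp107 and -1.71 without positive cell ogp9). Cell ogp107 was of low sum, and with all cells of low sum left out Ctnnbip1 was at -0.83. Ctnnb1, beta-catenin itself, averaged 52.6 TPM in positive and 49.9 TPM in negative cells, and the kinase gene Gsk3b 39.7 and 35.6 TPM. Tcf7l2, a TCF partner of beta-catenin, averaged 103 and 132 TPM, with -1.19 in ogp and 0.37 in ogp2 cells. The scaffold gene Apc also went opposite ways, at 0.98 and -2.53. Csnk1a1 was at -0.54, and the corepressor genes Tle1 and Tle2 were at 0.27 and -0.64.

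Common Wnt target genes were sparse in these cells. Only 5 of 18 members were compared, 2 were 2-fold lower and 0 higher (median -0.97, or -0.23 as a difference of mean logs). Notum, Myc and Fzd7 passed the limit through negative cells alone and had to lie below 0, which leaves Tnfrsf19 and Znrf3, at -0.10 and -0.11. The 2 lower genes were Notum and Myc, the latter detected in 2 positive and 8 negative cells at -1.26 (-0.94 without negative cell ogp2-84 and -2.48 without positive cell ogp2-73). Tnfrsf19, detected in more than a few cells of both groups, averaged 138 and 148 TPM. On the beta-catenin independent side, 13 of 20 planar polarity and noncanonical members were compared, with 1 higher, 1 lower and a median of 0.12. Over the 11 with 10 TPM in both groups 1 was higher and 0 lower, with a median of 0.19. The higher one was Celsr2, a polarity cadherin, at 1.17 with 0.06 in ogp and 1.94 in ogp2 cells (0.77 without positive cell ogp2-73). Camk2d was at -0.37 and Mapk10 at -0.76.

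Igsf21 had the widest separation of the 12 named lower genes, a difference of mean logs of -2.37, though not the largest log2 difference of means. Igsf21 (ENSMUSG00000040972, chr4:140026846-140246784, minus strand) encodes an immunoglobulin superfamily adhesion protein known from inhibitory synapses. It ranged from 0 to 275 TPM in positive cells with a median of 0, and from 0 to 566 TPM in negative cells with a median of 51.8. The typical negative cell had the transcript and the typical positive cell did not, while the upper cells of both groups overlapped. It was detected in 9 positive cells (28.1%, 13.7 to 46.7) and 44 negative cells (58.7%, 46.7 to 69.9). The log2 difference of means was -1.75, with -1.79 in ogp and -1.72 in ogp2 cells.

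The remaining lower genes had varied roles. Thoc2, of the THO complex of mRNA export, was detected in 18.8% of positive and 46.7% of negative cells, at -1.99 (-2.84 without positive cell ogp2-3). Kifap3, the cargo adaptor of kinesin-2, averaged 7.88 TPM (SD 21.2) and 42.8 TPM (SD 78.6), at -2.30 (-2.98 without positive cell ogp5). Cdh10, a type II cadherin, was at -1.68. Apobec3, a cytidine deaminase that restricts retroviruses, was at -1.33. Its positive sum was carried by 1 cell, ogp1, with 90.02% of it, and the value without that cell was -4.04. Lmo1, a LIM-only transcriptional cofactor, averaged 43.7 and 123 TPM at -1.48, and Igdcc4, another immunoglobulin superfamily member, was at -1.59. Prr13 and Tprgl were at -1.27 and -1.31. In each of these genes the median of the positive cells was 0 and the ranges overlapped.

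In the MHC class I pathway, which loads peptides for display to T cells, B2m and Tapbp were 2-fold lower in positive cells, and the heavy chain genes H2-K1 and H2-D1 were within 2-fold. B2m encodes the light chain of the MHC class I molecule. Its level ranged from 0 to 1825 TPM in positive cells (median 251) and from 0 to 7622 TPM in negative cells (median 510.4). The transcript was present in 68.8% of positive cells (49.99 to 83.9) and 81.3% of negative cells (70.7 to 89.4), intervals that overlap. The log2 difference of -1.08 stood at -0.91 without negative cell ogp106, the cell of low sum that had the highest B2m level. It was -0.71 without the 6 cells that stand apart, so the 2-fold call of B2m rested on them. With all cells of low sum left out, positive and negative, it was -1.08. Tapbp encodes tapasin, which holds the peptide transporter next to MHC class I. Its level ranged from 0 to 290.4 TPM in positive cells (median 10.8) and from 0 to 629 TPM in negative cells (median 165). The log2 difference of Tapbp was -1.27, with -1.23 in ogp and -1.30 in ogp2 cells and -1.26 without the 6 cells. The peptide transporter gene Tap1 was at -1.32 (-2.70 in ogp and -0.23 in ogp2 cells). Without negative cell ogp41 it was at -0.98, under 2-fold, and without positive cell ogp2-30 at -1.98. H2-T22 was below 1 TPM in every positive cell and detected in 8 negative cells, and the immunoproteasome gene Psmb9 was at -1.31 (-0.49 without the 6 cells, -0.55 without ogp41 alone and -2.33 without positive cell ogp2-53). Of 16 members 14 were compared, 5 were 2-fold lower (14.0% of all genes were) and 1 was higher (10.7%). The list median was -0.38, or -0.19 without the 6 cells. H2-T22 and Psmb9 passed the limit through negative cells alone, and over the other 12 members the median was -0.21, with 3 lower and 1 higher. The classical heavy chain genes H2-K1 and H2-D1, printed here though outside the rule for names, were at 0.07 and -0.51.

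Filament genes of the stem cells were lower on average in positive cells, mainly through the level in the cells that had them. Gfap (ENSMUSG00000020932, chr11:102887336-102900912, minus strand) ranged from 0 to 308 TPM in positive cells and from 0 to 3082 TPM in negative cells, with medians of 0 and 0. Most cells of both groups lacked it, and the highest levels were all in negative cells. It was detected in 6 positive cells (18.8%, 7.21 to 36.4) and 19 negative cells (25.3%, 15.99 to 36.7), and where detected it averaged 155 and 663 TPM. The log2 difference of means was -2.49, with -2.57 in ogp and -2.46 in ogp2 cells, and was -0.87 as a difference of mean logs.

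Vim (ENSMUSG00000026728, chr2:13573927-13582826, plus strand), which encodes vimentin, had the same number of positive and negative cells at 1 TPM as Gfap. It ranged from 0 to 205 TPM in positive cells and from 0 to 1139 TPM in negative cells, with medians of 0 and 0. Where detected, it averaged 78.8 and 451 TPM, and the highest levels were again in negative cells. The log2 difference was -2.87, with -3.59 in ogp and -1.77 in ogp2 cells, -3.58 without positive cell ogp2-30 and -1.15 as a difference of mean logs. Thbs4, a matricellular glycoprotein of SVZ stem cells, was detected in 18.8% of positive and 29.3% of negative cells at -1.15, and at -0.89 without negative cell ogp2-19. Gfap or Thbs4 was present in 10 positive cells (31.3%, 16.1 to 50.01) and 34 negative cells (45.3%, 33.8 to 57.3), and Gfap, Thbs4 or Vim in 50% and 53.3%. Igfbp5, an IGF binding protein, was found in similar shares of cells (46.9% and 49.3%) but averaged 23.99 TPM (SD 49.1) in positive and 57.9 TPM (SD 96.02) in negative cells, at -1.24.

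Other structural genes of the list were within 2-fold, apart from Prom1, Tspan18 and Lhx2. Of 20 members 17 were compared, 2 were 2-fold higher (10.7% of all genes were) and 5 lower (14.0%). The list median of -0.42 was -0.10 in ogp and -0.03 in ogp2 cells. Prom1 and Nr2f1 passed the limit through negative cells alone and Tspan18 through positive cells alone, and over the other 14 the median was -0.33, with 1 higher and 4 lower. Prom1 was at -1.01, with -4.24 in ogp and 0.22 in ogp2 cells. The tetraspanin genes Cd9 and Cd81 were detected in every quiescent cell and were at -0.06 and 0.03. Sox2, a stem cell transcription factor, was at -0.17, Fabp7, a fatty acid carrier of radial glia, at -0.50, and Meis2 at -0.22. Crym, a thyroid hormone binding protein, averaged 1564 TPM (SD 1826) in positive and 2551 TPM (SD 3323) in negative cells and was detected in 65.6% and 64% of them. Its log2 difference was -0.71, with 0.33 in ogp and -1.43 in ogp2 cells. Hsd11b1, a glucocorticoid converting enzyme, was detected in 37.5% and 30.7% of cells. Vcam1, an adhesion molecule of quiescent SVZ stem cells, was found in 30 positive cells (93.8%, 79.2 to 99.2) and 56 negative cells (74.7%, 63.3 to 84.01), at 0.41. Msi1, an RNA-binding protein, was at 0.82 and at 0.04 without positive cell ogp50, and Tspan18, at 1.17, was at 0.04 without positive cell ogp2-95.

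**Figure D3:**
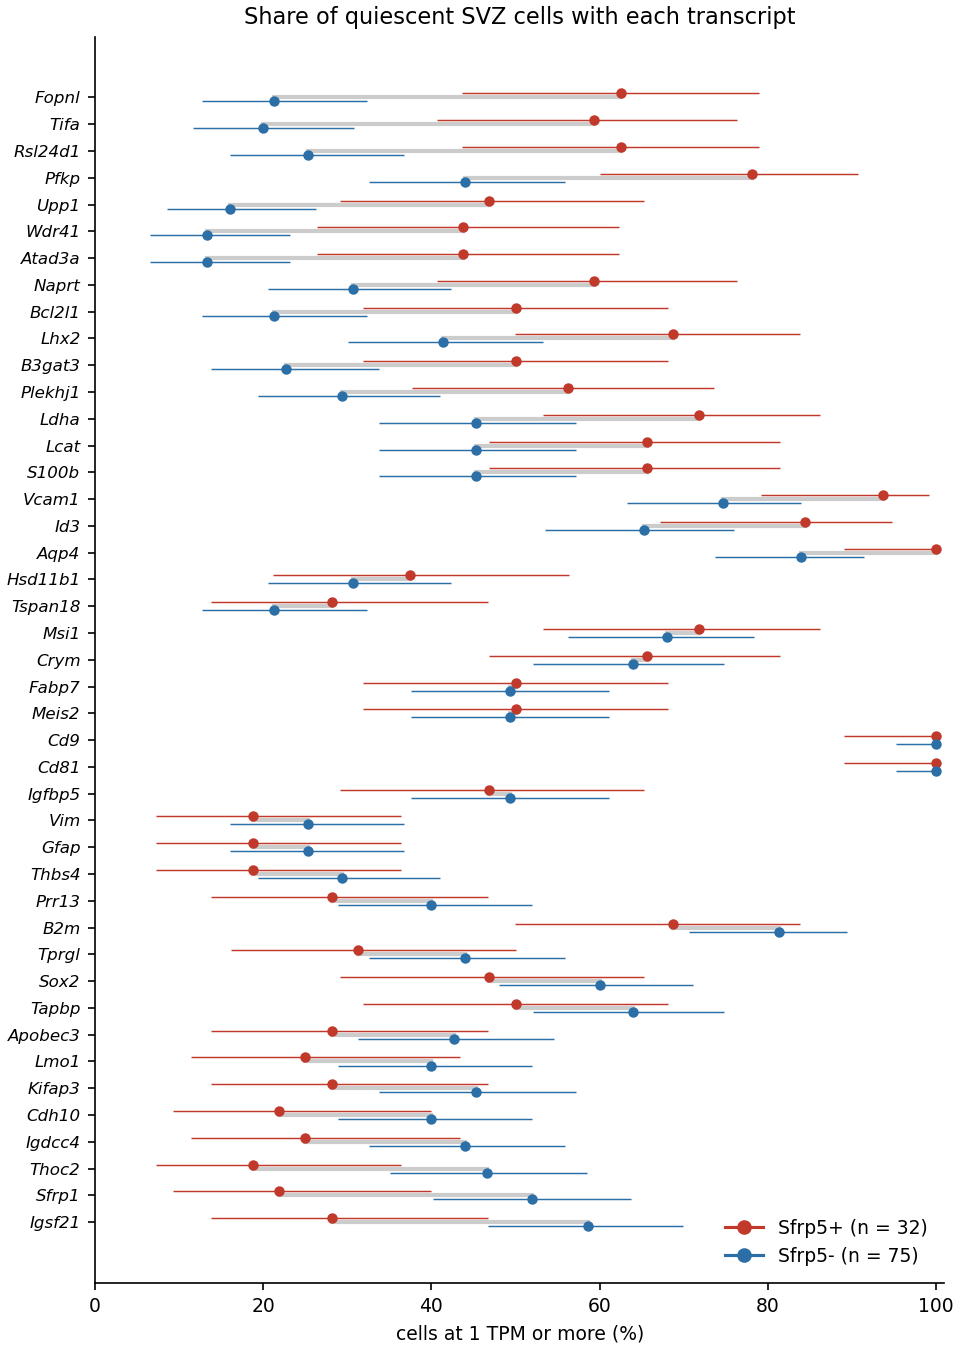
Points give the percentage of Sfrp5 positive (red, n = 32) and negative (blue, n = 75) quiescent cells with a transcript at 1 TPM or more, and thin lines are exact 95% Clopper-Pearson intervals, with genes ordered by the difference. Fopnl is at the top with 62.5% and 21.3%, Igsf21 at the bottom with 28.1% and 58.7%, and Cd9 and Cd81 are in all cells.

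The forebrain transcription factor Lhx2 was found in a larger share of positive cells. Lhx2 (ENSMUSG00000000247, chr2:38339281-38369733, plus strand), a LIM homeodomain factor of the dorsal forebrain, ranged from 0 to 615 TPM in positive cells (median 16.9) and from 0 to 229 TPM in negative cells (median 0.110). The transcript was present in 22 positive cells (68.8%, 49.99 to 83.9) and 31 negative cells (41.3%, 30.1 to 53.3), and the groups overlapped over most of their range. The log2 difference was 1.22, near equal in ogp (1.27) and ogp2 cells (1.14), and 0.82 without positive cell ogp35. Of 10 dorsal patterning genes 6 were compared, with 2 higher and 2 lower and a median of -0.70, or -0.43 over the 5 with 10 TPM in both groups. The dorsal factors Pax6 and Emx2 were at -1.06 and -1.51, with -0.86 and -0.98 without negative cells ogp3 and ogp38, and Emx2 was at -2.51 without positive cell ogp43. Of 16 ventral and lateral genes 9 were compared, with 0 higher, 2 lower and a median of -0.22. Both lower ones passed the limit through negative cells alone, and over the other 7 the median was 0.10.

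Most astrocyte-like genes were slightly higher in positive cells. All 30 members of the quiescent stem cell and astrocyte list were compared, 1 was 2-fold higher and 0 were 2-fold lower. A value above 0 was found for 24 and below 0 for 6, Slc6a11 at -0.48 among the latter. Over all 6749 genes with 10 TPM in both groups, 3486 were above 0 and 3263 below. The list median was 0.14 (0.07 in ogp and 0.19 in ogp2 cells), or 0.10 without the 6 cells that stand apart. The members described next were picked for the largest differences of the list. Aqp4, the water channel of astrocytes, ranged from 23.9 to 969 TPM in positive cells (median 407) and from 0 to 1017 TPM in negative cells (median 187). It was present in every positive cell, while 63 of 75 negative cells had it (84%, 73.7 to 91.4), and the log2 difference was 0.86. S100b, a calcium-binding protein of mature astrocytes, was detected in 65.6% and 45.3% of cells, with medians of 29.1 and 0.130 TPM. Its log2 difference of 1.08 was 1.02 and 1.14 in the series and 0.83 without positive cell ogp2-15.

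Id genes encode inhibitors of basic helix-loop-helix factors and respond to BMP. Id2 and Id3 were within 2-fold, and Id1 passed 2-fold in ogp but not in ogp2 cells. Id3 averaged 775 TPM (SD 820.4) and 497 TPM (SD 720.3), with 27 of 32 and 49 of 75 cells detected, at 0.64. Id2 ranged from 218 to 6365 TPM in positive and from 0 to 5353 TPM in negative cells, with medians of 1408 and 1179.5, at 0.51. Id1 was rarer, in 9 and 12 cells (28.1% and 16%), at 1.13 with 2.11 in ogp and 0.34 in ogp2 cells (0.89 without positive cell ogp50). The differences of Id2 and Id3 were smaller than the spread between cells. Of 26 BMP pathway and Id genes 14 were compared, with 4 higher (10.7% of all genes were), 2 lower (14.0%) and a median of 0.42. Over the 10 with 10 TPM in both groups 2 were higher and 0 lower, and the median was also 0.42.

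The genes higher in positive cells included Fopnl, Pfkp, Upp1 and Lcat. Fopnl (ENSMUSG00000022677, chr16:14299244-14317405, minus strand), a centrosomal protein needed for cilia, had the widest separation of the 12 named higher genes, a difference of mean logs of 3.14. It ranged from 0 to 651 TPM in positive cells with a median of 168.5, and from 0 to 891 TPM in negative cells with a median of 0. Most positive cells had it and most negative cells lacked it, though the highest single level was in a negative cell. It was detected in 20 positive cells (62.5%, 43.7 to 78.9) and 16 negative cells (21.3%, 12.7 to 32.3). The log2 difference of 1.71 was 4.18 in ogp and only 1.01 in ogp2 cells.

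Pfkp (ENSMUSG00000021196, chr13:6579768-6648777, minus strand), the platelet-type phosphofructokinase of glycolysis, ranged from 0 to 1936 TPM in positive cells (median 169) and from 0 to 1004 TPM in negative cells (median 0.450). The transcript was present in 25 positive cells (78.1%, 60.03 to 90.7) and 33 negative cells (44%, 32.5 to 55.9), at 1.72. Ldha, the lactate dehydrogenase subunit that ends glycolysis, was detected in 71.9% and 45.3% of cells with medians of 267 and 0.260 TPM. Its log2 difference of 1.56 was 2.19 in ogp and 0.98 in ogp2 cells, just short of 2-fold in the latter. The glycolysis list as a whole was near level by mean TPM, with 16 of 17 members compared, 2 higher, 0 lower and a median of 0.29. As a difference of mean logs its median was 0.61, against 0.11 over all genes. The hexokinase gene Hk1 went the other way at -0.95.

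Upp1, which splits uridine, was detected in 15 positive and 12 negative cells at 1.92. Naprt, which makes NAD from nicotinic acid, was at 1.39, and Lcat, which esterifies cholesterol on lipoproteins, averaged 519 TPM (SD 618) in positive and 211 TPM (SD 328) in negative cells at 1.29. Atad3a, an ATPase of the inner mitochondrial membrane, had the largest log2 difference of the 12 named higher genes, 2.84. Its means were 103 and 13.5 TPM, although only 14 positive and 10 negative cells had it. Bcl2l1, the anti-apoptotic Bcl-xL, was detected in 50% and 21.3% of cells at 1.58. Tifa, an adaptor of NF-kappaB signalling, was found in 59.4% of positive cells (40.6 to 76.3) and 20% of negative cells (11.6 to 30.8) at 1.44. The last 4 named genes were Rsl24d1 of ribosome assembly at 1.71, B3gat3 of glycosaminoglycan synthesis at 2.16, Wdr41 at 2.13 and Plekhj1 at 1.48. In all 12 genes the ranges of the groups overlapped and some positive cells were listed at 0.

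The medians of the oligodendrocyte, immediate early and interferon lists rose when the 6 negative cells that stand apart were left out. Those cells were picked for high sums of these and the microglia lists, and the expression limit was applied anew without them. The rise was therefore built in, and it does not show that these cells alone set the medians. Oligodendrocyte lineage genes had a median of -1.68 over 7 of 16 members compared, which became 0.75 without the 6 cells. Olig1, a precursor transcription factor, was below 1 TPM in every positive cell and averaged 1549 TPM in the 6 cells and 14.2 TPM in the other 69 negative cells. The myelin gene Mbp was the other way at 1.09, detected in 7 positive and 9 negative cells (0.80 without positive cell ogp35). The immediate early median of -2.16 (10 of 20 members) became 0.69, and Fos averaged 6458 TPM in the 6 cells, 82.8 TPM in the other negative cells and 36.3 TPM in positive cells, where 1 cell, ogp110, held 99.5% of the sum. That cell was of low sum, and the log2 difference of Fos was -3.99 with the cells of low sum and -8.58 without them. The interferon median of -0.94 (27 of 31 members) became -0.08. Of those 27 members 13 were lower (14.0% of all genes were) and 1 higher (10.7%). Members that passed the limit through negative cells alone numbered 4, 3 and 7 in these lists. With the 6 cells kept, the 2 oligodendrocyte members with 10 TPM in both groups had a median of 0.73, 1 higher and 0 lower. The 7 such immediate early members had a median of -1.51, with 1 higher and 4 lower. For the 20 such interferon members it was -0.71, with 1 higher and 7 lower. Isg15, an interferon-induced ubiquitin-like protein, averaged 462 TPM in the 6 cells and 18.3 TPM in the other negative cells and was listed at 0 in positive cells.

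Few reactive glia and complement genes could be compared. Of 19 members 6 were, 4 were lower (14.0% of all genes were) and 0 higher, and the median was -2.68, or -2.72 without the 6 cells. The 4 were Gfap and Vim, described above, and Serpina3n and Cxcl10, which were listed at 0 in positive cells and had to differ. Over the other 4 members the median was -1.23, and over all 6 it was -0.86 as a difference of mean logs. Serpina3n, an acute phase protease inhibitor of reactive astrocytes, was listed at 0 in all 32 positive cells and reached 1 TPM in 10 of 75 negative cells, up to 742 TPM. C4b, complement component 4, was abundant in both groups at 282 and 252 TPM.

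**Figure D4:**
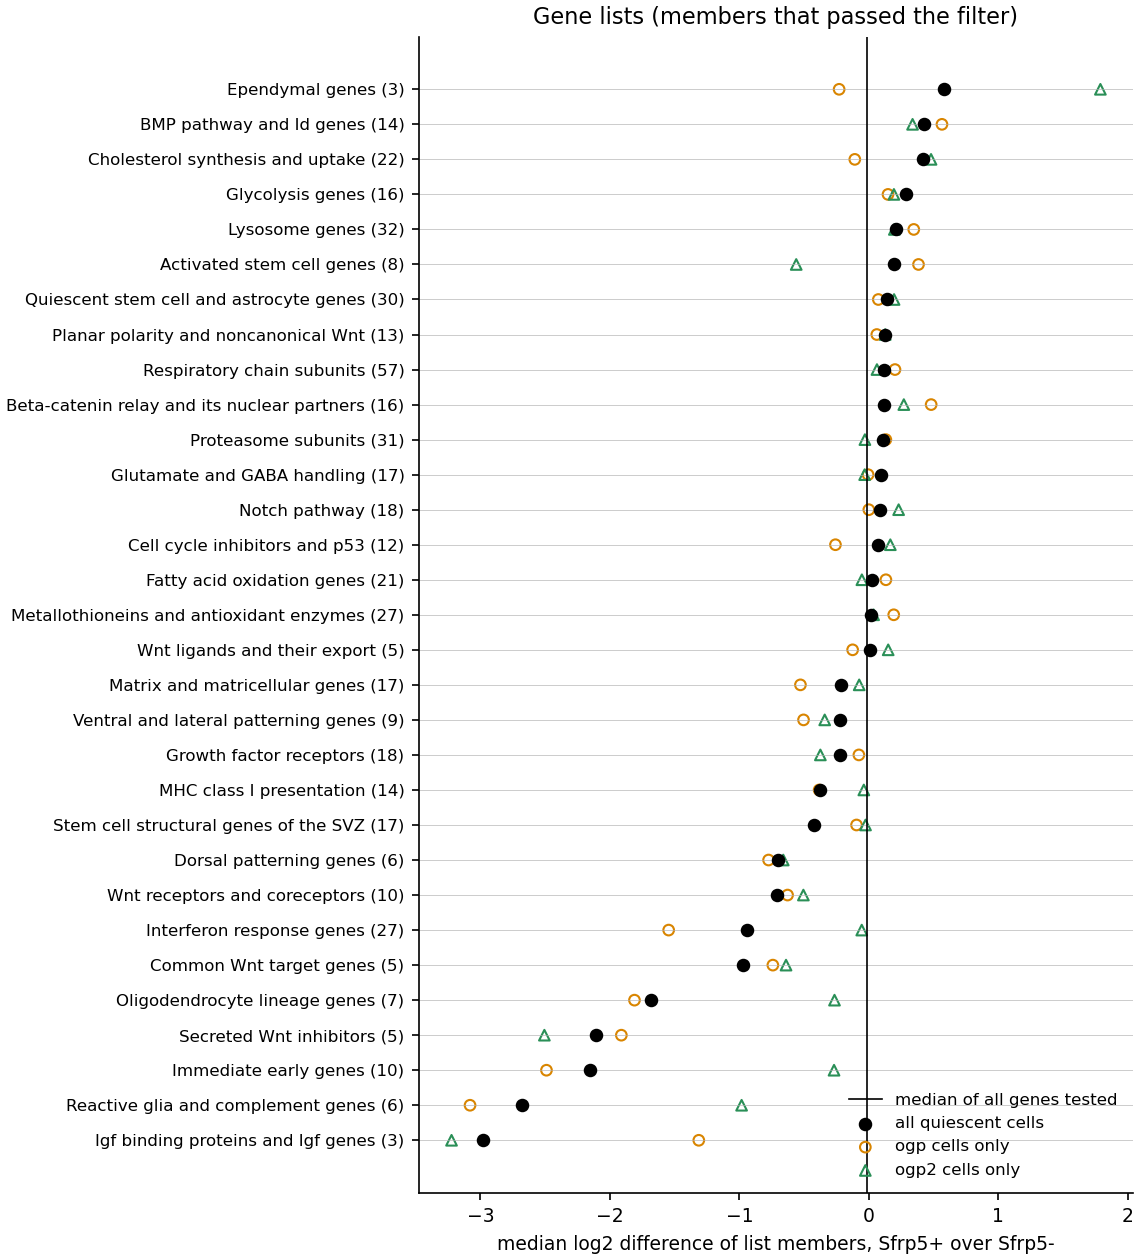
Points give the median log2 difference, Sfrp5 positive over negative, of the members of each gene list that passed the expression limit (their number in brackets), in all quiescent cells (black) and within ogp (orange) and ogp2 cells (green), and the line is the median of all genes, -0.01. Metabolic lists lie close to the line by this measure, and the secreted Wnt inhibitors, 3 of 5 of which had 10 TPM in negative cells alone, are at -2.11. As differences of mean logs, not plotted, the glycolysis and respiratory chain medians were both 0.61, against 0.11 over all genes. The oligodendrocyte and immediate early medians change sign without 6 cells that were picked for high sums of such lists.

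The other cells of the series place these levels. Pfkp averaged 1.71 TPM in the 26 SVZ cells with R of 5 or more (2 detected) and 219.6 TPM in 13 striatal astrocytes (11 detected), against 271 TPM in positive and 81.4 TPM in negative quiescent cells. Lcat averaged 11.7 and 515 TPM in those 2 groups, and Aqp4 8.19 and 253 TPM. These 3 transcripts were picked after their values were seen, and others lay differently. Fopnl averaged 52.5 TPM in striatal astrocytes, 49.2 TPM in negative and 163 TPM in positive cells, and Lhx2 30.9, 29.9 and 70.99 TPM. Tprgl averaged 228, 113 and 44.9 TPM in the same order, so that here the negative cells were nearer to the astrocytes. Vim was detected in 25 of 26 SVZ cells with R of 5 or more and in 1 of 13 striatal astrocytes. Igsf21 was detected in 12 of the former and 2 of the latter, and Sfrp1 in 18 and 3. Thbs4 was listed at 0 in all 17 astrocytes, so the 6 positive cells with Thbs4 differed from them in that transcript. These groups differ in tissue, age label and sort, which cannot be told apart from cell type here, and the differences were not tested.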

How the data were processed

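Single cells of old mouse SVZ, striatum and cortex were measured by Smart-seq2. Reads were aligned with STAR 2.4.0g1 and quantified with RSEM 1.2.18 on mm10, per the submitters' processing notes, and the gene annotation is not given in the sources used here. The deposited values are TPM, normalized by the authors to 1e+06 per cell, as read from the values. In 5 ogp columns the listed genes summed to 66189 to 309864, so each cell was rescaled to 1e+06. Gene identifiers (43309, of which 42425 had a symbol) were named and placed with GENCODE vM21 on GRCm38, and sequences are from RefSeq. The 18 population libraries are not analysed here.

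For each gene, mean TPM + 1 in Sfrp5 positive cells was divided by that in negative quiescent cells and put on the log2 scale, for genes with 10 TPM in either group, called at 2-fold. Averages over cells of a pool have no replicate error, so no test was run. Shares of cells at 1 TPM have Clopper-Pearson 95% intervals (scipy 1.17.1, pandas 2.3.3, Python 3.11.15). Ribosomal protein genes for R numbered 89.

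Single genes were named when 2-fold in all cells and, in the same direction, within each series, with 20 TPM and detection in 40% of cells of the higher group, 12 per direction by the difference of mean log2(TPM + 1). Predicted genes were counted, not named (1 higher, 2 lower). Members of the 5 Wnt lists and the structural list with 20 TPM, and up to 4 members of each other list, were also eligible. The members, all 38 lists and the comparison were chosen with earlier results of these data known. Which eligible genes are printed, and the cells described as standing apart, were chosen after their values were seen. The computation was tested on simulated data. Alternatives covered the pseudocount, filters, averaging, both thresholds, series, scaling, the range of genes detected and single cells.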

Additional observations from a re-analysis of the deposited data

Results flagged for a closer look

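Mapk9, which encodes the stress kinase JNK2, differed in opposite directions in the series, at 1.42 on the log2 scale within ogp cells and at -1.23 within ogp2 cells, and this contrast between the series was not tested. It was detected in 6 of 32 positive and 16 of 75 negative cells, with means of 17.9 TPM (SD 55.6) and 24.6 TPM (SD 82.3). Leaving out 1 cell moved its overall value of -0.44 between -1.29 and 0.09.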

How the results depend on the processing

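Against 944 higher and 1235 lower genes, a pseudocount of 10 TPM gave 388 and 616, no filter on low values 1663 and 3345, a filter of 10 TPM in both groups 377 and 369, ogp cells alone 1611 and 2087, and ogp2 cells alone 1538 and 1809. The mean of log2(TPM + 1) over cells gave 793 and 192, moving the share of higher genes among calls from 43.3% to 80.5% and the median of all genes from -0.01 to 0.11. Leaving out the highest cell of each group gene by gene gave 578 and 1429. Counts stayed within 1.5 times for Sfrp5 at 10 TPM, R below 3, the columns of low sum left out, the mean of the within-series differences, median-ratio scaling, cells in a shared range of genes detected, and the removal of 3 or 6 cells that stand apart (1051 and 1082 for the 6). All 24 genes named by the rule kept their direction under all 15 alternatives. The rule asked for 2-fold overall and in each series, and the genes were ranked by the difference of mean logs. Alternatives by series, looser filter and mean of logs therefore could not reverse them, so this count is no support. The 24 genes also stayed 2-fold, except under R below 3 (22 of 24) and without the 6 cells (23 of 24).

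Of values past 2-fold, some reversed. Zfp36 was at 0.29 as a mean of logs. In ogp cells alone Chrdl1 was at -0.32, Hmox1 at -0.018 and Gclc at -0.18. In ogp2 cells alone Il6st was at 0.23 and Gbp3 at 0.10. Without the 6 cells Junb was at 0.43, Zfp36 at 0.69 and Btg2 at 0.36, the immediate early median at 0.69 and the oligodendrocyte median at 0.75 (0.71 without the 3 cells high in markers of other cell types). Removing highest cells, the 3 cells and the 6 cells were alternatives chosen after seeing the data.

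No paired analysis was possible because the comparison comes from no test and cell numbers only name cells. Depth is unknown from TPM, so a value of 0 says only that a gene is listed at 0. With no animal named for any cell, variation between mice cannot be told apart from variation between cells. Genes that share reads with near-identical copies or overlap other genes, such as MHC class I heavy chains, are uncertain, since how RSEM's shared reads and strand were handled is not given in the sources used here.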

Other observations

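By mean TPM, energy and waste handling genes were mostly level between Sfrp5 positive and negative cells. As differences of mean logs their list medians were higher in positive cells, against 0.11 over all genes. They were 0.61 for respiratory chain, 0.57 for proteasome, 0.39 for fatty acid oxidation and 0.60 for lysosome genes. None of 57 respiratory chain subunits compared was 2-fold different, with a median of 0.12 and 41 above 0, where 3486 of all 6749 genes with 10 TPM in both groups were. None of 31 proteasome subunits was 2-fold different, with a median of 0.11. Of 21 fatty acid oxidation genes 1 was 2-fold higher (Ppara, with 10 TPM in positive cells alone), with a median of 0.02, and Hadh, which acts in mitochondrial beta-oxidation, was detected in 22 of 32 positive and 39 of 75 negative cells at 0.86. Of 33 lysosome genes 32 were compared, 3 were higher, 1 of them (Tfeb) with 10 TPM in positive cells alone, and 1 lower (median 0.21), and the sialidase gene Neu1 was at 1.21. Sod2, the mitochondrial superoxide dismutase, was detected in 65.6% of positive and 41.3% of negative cells at 0.97, nearly equal in the series (0.95 and 0.99).

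Cholesterol genes were split. Their median was 0.42 over 22 members, with -0.11 in ogp and 0.48 in ogp2 cells. Values above 0 were found for 15 of the 21 members with 10 TPM in both groups, and for 3486 of all 6749 such genes. Yet the only 2 members past 2-fold were lower. These were Mvk, mevalonate kinase, in 6 positive and 23 negative cells at -1.55, and Ebp at -2.28. Ebp was detected in 1 positive and 9 negative cells, passed the expression limit through negative cells alone and was at -4.77 without positive cell ogp2-73. Srebf2, the transcription factor that drives the pathway, was detected in 71.9% and 82.7% of cells with medians of 40.7 and 115 TPM, at -0.87. Trp53, the p53 tumour suppressor, was at -1.54, with -1.24 in ogp and -1.83 in ogp2 cells, (-2.22 without positive cell ogp99), and was detected in 6 positive and 19 negative cells. Notch1, a receptor known for maintaining neural stem cells, was detected in 50% of positive and 69.3% of negative cells, but its log2 difference was -2.35 in ogp and 0.16 in ogp2 cells. The growth factor receptor Egfr, a marker of activation, also differed in direction between the series, at 1.17 and -0.48. Among matrix genes, Spon1 was detected in 14 of 32 positive and 44 of 75 negative cells at -0.99, while Timp4, a metalloproteinase inhibitor, was detected in 93.8% and 69.3% at 0.47.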
